A study of Homo sapiens with 12 samples.

Results

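The early secretory pathway was examined through 44 genes chosen by name from the gene count table. They encode the signal recognition particle (SRP) and its receptor, the SEC61 channel with its partners, the signal peptidase, the COPII vesicle coat, the SEC22 proteins and the KDEL receptors. All 44 were found among 61209 gene names, and 43 passed the filter on low counts that left 18526 names for testing. SEC16B, a homologue of the exit site scaffold SEC16A, was not tested, with 4 counts in all 12 libraries together.

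The cells were A375, a melanoma line in long use, and messenger RNA levels were read in 12 libraries, 3 for each of 4 groups. OGDH-depleted cells starved of glucose for 5 h, OGDH-depleted cells kept in glucose, control cells starved for 5 h and control cells kept in glucose made up the groups. OGDH oxidises 2-oxoglutarate as part of a mitochondrial dehydrogenase complex in the tricarboxylic acid cycle. Sample titles call the depletion a KO and the series text a knockdown, and neither says how it was made, whether it is 1 clone, or what the control cells carry. Nor is it stated whether replicate libraries stem from independent cultures, so each p-value reflects the spread among the sequenced libraries, and that spread may be technical.

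Secreted and membrane proteins enter the endoplasmic reticulum (ER) while they are made: the SRP binds the signal sequence on the ribosome, docks at its receptor and hands the chain to the SEC61 channel, where the signal peptidase trims it. Folded cargo then leaves in COPII vesicles, which form when a SAR1 GTPase recruits the inner coat of SEC23 and SEC24 and the outer coat of SEC13 and SEC31, and KDEL receptors return escaped ER residents. In the unfolded protein response, the transcription factors XBP1 and ATF6 raise many genes of this pathway together with ER chaperones.

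OGDH averaged 32.8 ± 0.904 CPM (counts scaled to library size with TMM factors; SD, n = 3 here and throughout) in starved OGDH-depleted cells and 39.8 ± 4.68 CPM in fed OGDH-depleted cells, against 131 ± 2.01 CPM in starved control cells and 154 ± 11.9 CPM in fed control cells. OGDH was lower with depletion at log2 fold changes of -1.99 without glucose and -1.96 with glucose (edgeR adjusted p = 3.47e-07 and 8.65e-06). HSPA5, the ER chaperone BiP and a reference for ER stress, averaged 821 ± 32.8 CPM in starved and 685 ± 6.75 CPM in fed OGDH-depleted cells, and 11446 ± 686 CPM in starved and 798 ± 42.7 CPM in fed control cells. The libraries held 21556273 to 25546615 counts. The neural crest marker SOX10 lay between 299 and 670 CPM and AXL between 308 and 704 CPM, with the lineage factor MITF at 23.5 to 49.3 CPM, while the pigment cell genes PMEL and MLANA were at most 1.56 CPM and TYR at or near 0. PTPRC, CD3E, EPCAM, CDH1 and ALB, which mark blood, epithelial and liver cells, were also at or near 0 (at most 0.26 CPM each), whereas the keratins KRT8 and KRT18 reached 139 and 759 CPM. CD14, PECAM1 and COL1A1, further markers of other cells, reached 1.02, 0.562 and 1.75 CPM. Among melanoma and neural crest markers, NGFR lay at 45.8 to 139 CPM, and S100B, S100A1 and DCT reached only 1.82, 2.93 and 0.662 CPM. In bulk RNA, a smaller share of some cells and less RNA per cell cannot be told apart.

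Glucose starvation raised many genes of this machinery in control cells, led by SEC24D, TRAM1, SEC24A, SSR3 and SRP19. No rise passed the test in OGDH-depleted cells. A gene was called where the adjusted p of edgeR's quasi-likelihood test with Benjamini-Hochberg adjustment over the 18526 tested genes (the edgeR adjusted p below) was under 0.05. In OGDH-depleted cells 0 of 43 members rose on starvation and 2 fell, SEC16A and SEC31B, beside 2.42% of all tested genes called higher and 4.76% called lower. In control cells 21 of 43 members rose and 2 fell, SEC31B and SEC22C, beside 17% of all tested genes called higher and 17.5% called lower. At an unadjusted p under 0.05, 2 members were higher and 2 lower in OGDH-depleted cells, and 24 were higher and 2 lower in control cells, while 23.7% and 44% of all tested genes had such a p in OGDH-depleted and control cells, counting both directions. DESeq2 called 0 members higher and 2 lower in OGDH-depleted cells, beside 11% of all tested genes in both directions together. The median log2 fold change over the members was 0.13 in OGDH-depleted cells (0.02 over all tested genes) and 0.45 in control cells (-0.02 over all tested genes). In OGDH-depleted cells all starved libraries lay above the fed ones for 10 members and below for 3, beside 20.6% and 19.1% of all tested genes. In control cells this held for 17 and 2 members, beside 19.4% and 20.8%.

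**Figure D1:**
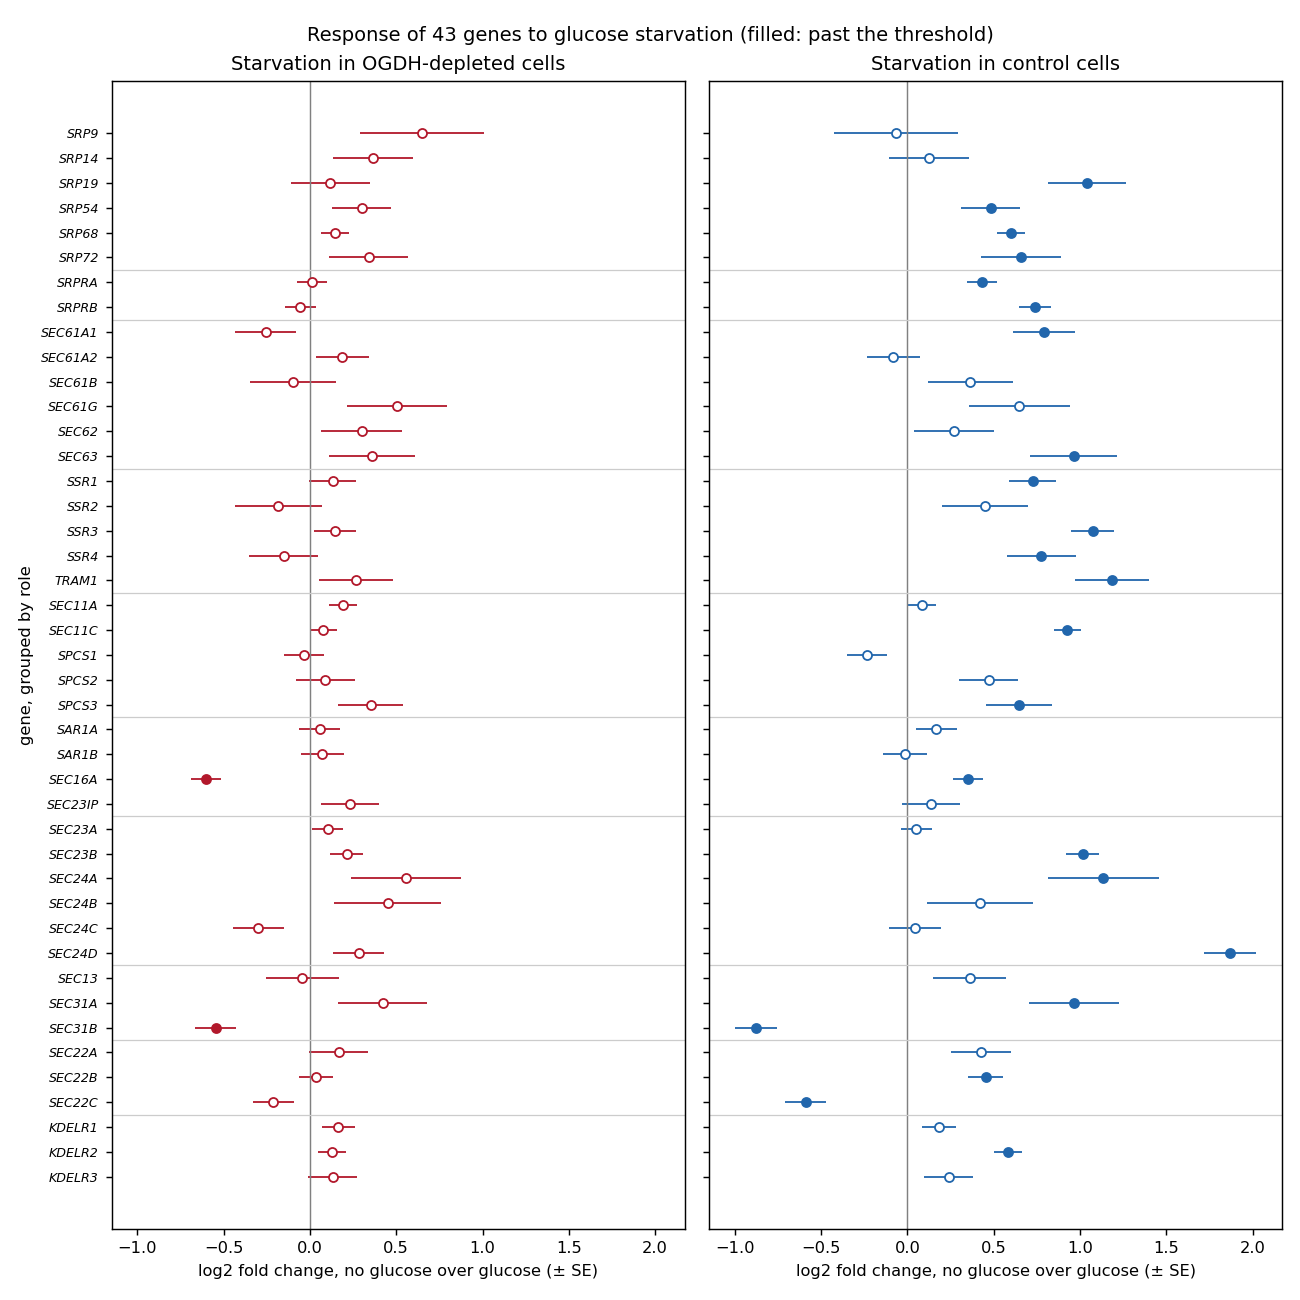
Log2 fold change on glucose starvation (no glucose over glucose, x axis, ± SE) for each of the 43 tested genes (y axis, grouped by role) in OGDH-depleted cells (left) and control cells (right), with filled points past the threshold. In OGDH-depleted cells 2 points are filled, SEC16A and SEC31B, and in control cells 23 are filled, 21 of them right of 0.

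The difference between the responses was tested as the interaction, the starvation response of OGDH-depleted cells minus that of control cells. It was below 0 past the threshold for 11 members and above 0 for 0 members, beside 8.95% and 8.3% of all tested genes called in those directions (edgeR's quasi-likelihood test). At an unadjusted p under 0.05 it was above 0 for 1 member and below 0 for 15, beside 30% of all tested genes in both directions together. DESeq2 called 0 members above 0 and 15 below, beside 20.4% of all tested genes in both directions. The 11 members were SEC24D, SEC61A1, SEC16A, SSR4, SSR3, SEC11C, SEC23B, SRPRB, SRP68, KDELR2 and SRPRA. They range from the SRP to the KDEL receptors. SEC22B did not pass (-0.42, edgeR adjusted p = 0.0652), though DESeq2 called it. The members together took 0.465%, 0.489% and 0.492% of all counts in starved OGDH-depleted libraries and 0.46% to 0.463% in fed OGDH-depleted libraries. In control cells they took 0.587%, 0.605% and 0.581% of counts after starvation and 0.465%, 0.488% and 0.467% with glucose, so the 3 starved control libraries were above the other 9.

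Of the 12 libraries, 3 stood apart from their groups: OGDH-depleted starved replicate 3, control starved replicate 3 and control fed replicate 2. Their deviation followed base composition. Across the 43 members the log2 level in each library, minus the mean of the other libraries of its group, correlated with the GC content of the gene's longest transcript at Pearson r = -0.646 (Spearman rho = -0.68), 0.584 (0.576) and -0.671 (-0.664) in that order. Over 15166 tested genes with a GC value the same r was -0.6, 0.594 and -0.67. The other libraries of those groups were tilted too, each set against a mean that includes the library standing apart. Across the members r was 0.546 and 0.781 in control fed replicates 1 and 3. It was -0.572 and -0.509 in control starved replicates 1 and 2, and 0.55 and 0.402 in OGDH-depleted starved replicates 1 and 2. In fed OGDH-depleted libraries r lay between -0.038 and 0.0388. These are descriptions across genes, which are not independent. Mitochondrially encoded genes took 3.06%, 5.12% and 9.71% of counts in starved and 5.16% to 6.98% in fed OGDH-depleted libraries, and 14.4%, 13.2% and 4.11% in starved and 4.97%, 14.6% and 6.35% in fed control libraries (replicates 1, 2 and 3). With these genes left out before scaling, the same 23 members were called for starvation in control cells and the same 2 in OGDH-depleted cells. Beside them, 35% and 7.24% of all tested genes were called. SRP9, SEC63, SEC24A and SEC24B varied widely between libraries of 1 group, and so did SEC31A at 46.35% GC, whereas SEC11C and SEC23A, at 40.26% and 37.34% GC, varied little. What these 3 libraries add to each difference was not tested except as given beside it below.

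**Figure D2:**
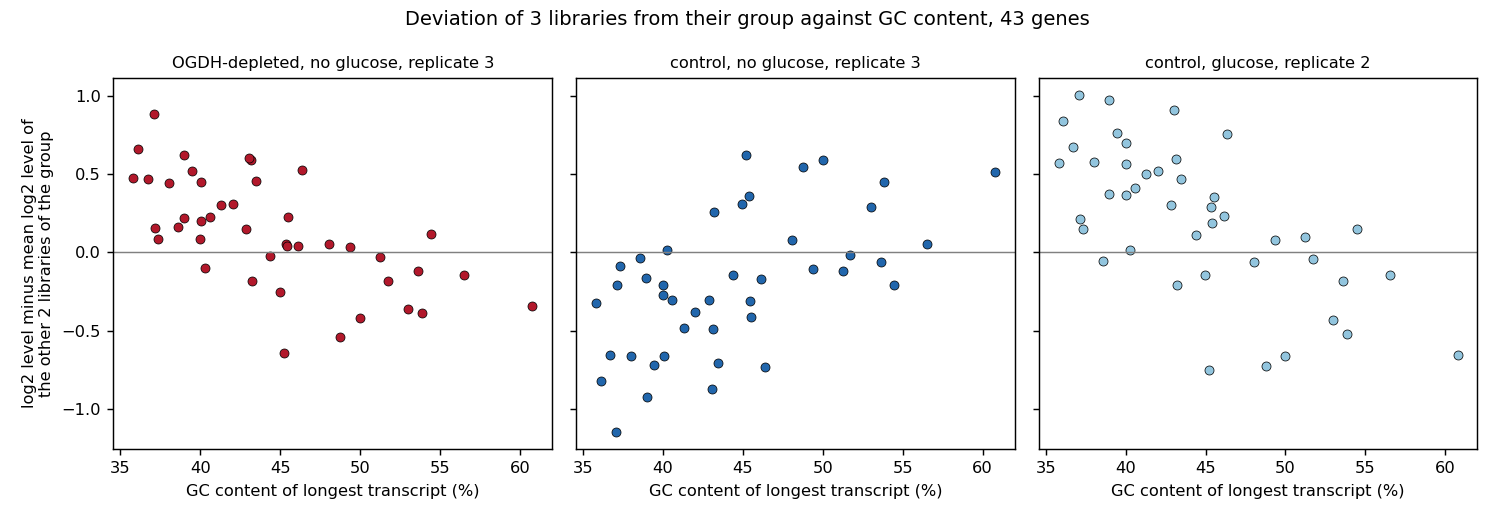
Deviation of a library from the other 2 libraries of its group (log2 level, y axis) against the GC content of each gene's longest transcript (%, x axis) for 43 genes in OGDH-depleted starved replicate 3, control starved replicate 3 and control fed replicate 2. AT-rich genes lie high and GC-rich genes low in the left and right panels (r = -0.646 and -0.671), and the reverse holds in the middle panel (r = 0.584).

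Without these 3 libraries, 35 members were called for starvation in control cells (31 higher, 4 lower), and all 23 calls above were among them, beside 60.5% of all tested genes. For starvation in OGDH-depleted cells 0 members were then higher and 2 lower, the same genes as with all libraries, beside 17.6% of all tested genes. For the interaction 27 were below 0 and 2 above, including all 11 named above, beside 43% of all tested genes. Leaving them out does not remove the base composition from the comparison in control cells. The GC slope of the remaining starved control libraries was -0.176 and -0.215 log2 units per 10 percentage points of GC, against 0.179 and 0.126 in the remaining fed control libraries, so starvation and the slope cannot be told apart there. OGDH-depleted libraries had slopes of 0.0708, -0.0562 and -0.271 when starved (replicates 1, 2 and 3) and 0.151, 0.146 and 0.147 when fed. Starvation and the slope cannot be told apart in these cells either, with or without starved replicate 3. Among the remaining starved libraries the same holds for OGDH loss and the slope, and the interaction combines these differences. A fit with each library's GC slope as a covariate, chosen after the data were seen, called 29 members higher and 4 lower for starvation in control cells and included all 23 calls, beside 59.5% of all tested genes. In that fit 4 members were higher and 2 lower on starvation in OGDH-depleted cells, beside 26.2% of all tested genes.

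Promoter sequences were available for 39 of the 44 genes, as 56 RefSeq windows (GRCh38.p14) of 250 bases before to 50 bases after an annotated start. Motifs tied in the literature to ER stress were searched by exact letters on both strands. The unfolded protein response element core, TGACGTGG, which XBP1 and ATF6 are known to bind, lay in windows of 9 of the 39 genes, SRP19, SEC62, SSR3, SSR4, SEC16A, SEC16B, SEC23A, SEC24A and KDELR3. Where a gene has several windows the core lay in 1 of them: 1 of 3 for SSR3, SEC16A and SEC16B and 1 of 2 for SSR4. The SSR3 start with the core is 992 bases downstream of the gene's most upstream one, and the SEC16A start with the core is the most upstream of its 3, whose last 30 bases were found in no GENCODE v29 transcript of the gene. The core was found in 0.729% of all 35116 windows and in windows of 1.12% of 11816 tested genes that have one. On the opposite strand the core begins with CCACG, which also ends the ER stress response element (ERSE: CCAAT, any 9 bases, CCACG), and no complete ERSE lay in a member's window. ERSE was in 0.077% of all windows, among them the window of HSPA5. ERSE-II (ATTGG, any base, CCACG), the cAMP response element TGACGTCA and the ATF4 and CEBP core TGATGCAA were also not found in these windows, and lay in 0.054%, 1.85% and 0.866% of all windows. No match says only that these letters are not in this window.

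Of the 9 genes, SRP19, SSR3, SSR4, SEC16A and SEC24A rose on starvation in control cells, SEC62, SEC23A and KDELR3 did not pass the test and SEC16B was not tested. The 8 tested ones had a median log2 fold change of 0.56 (0.05 to 1.13), and the 30 tested members with a window but no core had a median of 0.44 (-0.88 to 1.02), of which 12 rose and 2 fell. Members that rose are thus found with and without a core. SEC24D, TRAM1, KDELR2, SRPRA and SPCS1 had no window. The stretches around the core are shown for genes on both sides of that split, with the core, in either orientation, in capitals and each sequence 5′ to 3′ on the gene's own strand.
SRP19 (chr5:112861151-112861206, plus strand): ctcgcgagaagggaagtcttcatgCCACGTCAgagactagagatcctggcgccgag
SSR3 (chr3:156554135-156554190, minus strand): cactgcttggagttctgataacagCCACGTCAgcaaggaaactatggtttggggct
SSR4 (chrX:153794515-153794570, plus strand): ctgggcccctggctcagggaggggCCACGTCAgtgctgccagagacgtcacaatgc
SEC24A (chr5:134648582-134648637, plus strand): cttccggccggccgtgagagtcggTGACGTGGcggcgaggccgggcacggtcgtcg
SEC62 (chr3:169966766-169966821, plus strand): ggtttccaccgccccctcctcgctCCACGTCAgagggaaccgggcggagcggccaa
KDELR3 (chr22:38468026-38468081, plus strand): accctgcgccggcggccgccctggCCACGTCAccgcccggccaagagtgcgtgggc
The first 4 belong to genes that rose in starved control cells and the last pair to genes that did not pass.

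The SRP has 6 protein subunits on 7SL RNA. In control cells 4 of the 6 rose on starvation, and in OGDH-depleted cells 0 did (edgeR's quasi-likelihood test, 0 also at an unadjusted p under 0.05 and by DESeq2). Over all tested genes, 17% and 2.42% were called higher in control and OGDH-depleted cells. SRP68, which pairs with SRP72, was at 138, 142 and 137 CPM in starved and 130, 123 and 125 CPM in fed OGDH-depleted cells. In control cells it was at 207, 209 and 191 CPM after starvation and 126, 140 and 135 CPM with glucose. The 3 starved control libraries lay above all other libraries. The rise in control cells was 0.60 on the log2 scale (SE 0.0796, edgeR adjusted p = 0.000154), and the interaction was -0.45 (edgeR adjusted p = 0.0167).

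SRP19, which helps assemble the particle on its RNA, had 10.9, 10.3 and 16.3 CPM in starved and 11.7, 10 and 12.8 CPM in fed OGDH-depleted cells, against 28.6, 27.3 and 19.8 CPM in starved and 9.87, 16 and 11 CPM in fed control cells. It rose 2.06-fold in control cells (edgeR adjusted p = 0.00435), and 18.15% of its exon bases overlap other genes. SRP54, the GTPase that binds the signal sequence, and SRP72 rose by 0.48 and 0.66 with edgeR adjusted p = 0.0469 and 0.0463, with overlapping groups. Both calls were also lost when any 1 of 4 control libraries was left out (fed replicate 1 or 3, starved replicate 1 or 2). SRP9 and SRP14, the Alu domain subunits, had log2 fold changes of -0.07 and 0.12 in control cells. SRP9 was at 158, 153 and 69.9 CPM in starved and 91.5, 199 and 107 CPM in fed control cells, so each control group held a library far from its others. Those are the libraries named above as standing apart. Its processed copy SRP9P1 holds 13867 counts beside 32930 for SRP9, so its level is uncertain.

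Both receptor subunits rose in control cells and neither passed in OGDH-depleted cells. SRPRA, the receptor's GTPase and, per length, the second most abundant member in fed control cells (89.5 ± 1.76 RPKM, CPM per kilobase of exon; SRP14 was at 111 ± 22.6 RPKM), was at 377, 407 and 346 CPM in starved and 381, 390 and 352 CPM in fed OGDH-depleted cells. In control cells it was at 488, 519 and 497 CPM after starvation and 372, 364 and 378 CPM with glucose. The starved control libraries stood above the rest, and the rise was 0.43 (edgeR adjusted p = 0.00277). SRPRB, its membrane anchor, rose by 0.74 in control cells (edgeR adjusted p = 0.0001), and its log2 fold change in OGDH-depleted cells was -0.06. The interaction passed for both, at -0.42 for SRPRA and -0.80 for SRPRB (edgeR adjusted p = 0.0376 and 0.00163). The SRPRA interaction did not pass in 13 of 21 alternatives, and the SRPRB interaction passed in all 21.

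At the SEC61 channel, 2 of 6 members rose in control cells and 0 in OGDH-depleted cells (edgeR, 0 also at an unadjusted p under 0.05 and by DESeq2). Over all tested genes, 17% and 2.42% were called higher in these backgrounds. SEC61A1 encodes the pore itself. It was at 381, 337 and 274 CPM in starved and 396, 380 and 410 CPM in fed OGDH-depleted cells, against 649, 603 and 856 CPM in starved and 469, 314 and 435 CPM in fed control cells. All starved control libraries were above all others. The rise in control cells was 0.79 (SE 0.178, edgeR adjusted p = 0.00501), and the interaction was -1.05 (edgeR adjusted p = 0.0143). SEC61A1 is GC-rich (53.84%), and without the 3 libraries that stand apart these values were 0.46 and -0.62, both still past the threshold. SEC61A2, the second pore paralog, had a log2 fold change of -0.08 in control cells and 0.19 in OGDH-depleted cells.

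SEC63, a J-domain protein that brings BiP to the channel, rose by 0.96 in control cells (edgeR adjusted p = 0.0115). It was at 151, 163 and 95.2 CPM in starved and 52.8, 96.3 and 60.7 CPM in fed control cells, which overlap by the pair of libraries that stand apart. Its copies SEC63P1 and SEC63P2 hold 5377 counts beside its own 23967. SEC62, its partner in post-translational import, had log2 fold changes of 0.30 in OGDH-depleted and 0.27 in control cells. The small subunits SEC61B and SEC61G did not pass in either background (0.36 and 0.65 in control cells, edgeR adjusted p = 0.282 and 0.109).

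Of the 4 subunits of the translocon-associated protein complex (TRAP) and TRAM1, which both sit at the channel, 4 of 5 rose in control cells. In OGDH-depleted cells 0 of the 5 rose (edgeR, 0 also at an unadjusted p under 0.05 and by DESeq2). Over all tested genes, 17% and 2.42% were called higher in these backgrounds. The summed level of these 5 genes was 653.2, 647.8 and 662.9 CPM in starved and 625.8, 607.8 and 654.8 CPM in fed OGDH-depleted cells. In control cells it was 1210, 1252 and 1139 CPM after starvation and 631.8, 676.5 and 621.1 CPM with glucose. SSR3, TRAP gamma, was at 241, 257 and 285 CPM in starved and 229, 227 and 250 CPM in fed OGDH-depleted cells, and at 470, 496 and 417 CPM in starved and 200, 258 and 199 CPM in fed control cells. Starved control libraries were apart from the other 9. SSR3 rose 2.1-fold in control cells (edgeR adjusted p = 5.12e-05), and the interaction was -0.93 (edgeR adjusted p = 0.00351). Of its exon bases, 20.76% overlap an unnamed gene.

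TRAM1, which helps nascent chains into the channel, was at 78.6, 95.7 and 118 CPM in starved and 80.4, 81.2 and 81.3 CPM in fed OGDH-depleted cells, against 304, 323 and 198 CPM in starved and 98.7, 155 and 109 CPM in fed control cells. Its starved control libraries were the highest, with replicate 3 nearest to the fed ones. It rose 2.28-fold in control cells (edgeR adjusted p = 0.00134). The interaction of -0.92 did not pass (edgeR adjusted p = 0.059), though DESeq2 called it. SSR1, TRAP alpha, and SSR4, TRAP delta, rose by 0.73 and 0.78 in control cells (edgeR adjusted p = 0.00166 and 0.0104). SSR2, TRAP beta, had a log2 fold change of 0.45 (edgeR adjusted p = 0.19). The interaction passed for SSR4 (-0.93, edgeR adjusted p = 0.0413), a call that 10 of 21 alternatives lost.

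The signal peptidase has a catalytic subunit, SEC11A or SEC11C, and the accessory subunits SPCS1, SPCS2 and SPCS3. In control cells 2 of the 5 rose, SEC11C and SPCS3, beside 17% of all tested genes. SEC11C was at 41.5, 41.9 and 38.9 CPM in starved and 38.1, 40.4 and 37.5 CPM in fed OGDH-depleted cells, against 71.5, 73.3 and 73.0 CPM in starved and 38.1, 38.5 and 38.0 CPM in fed control cells. The starved control libraries were nearly equal to each other and apart from the other 9. It rose 1.9-fold in control cells (log2 0.93, SE 0.0789, edgeR adjusted p = 5.17e-06), had a log2 fold change of 0.08 in OGDH-depleted cells, and gave an interaction of -0.85 (edgeR adjusted p = 0.000351).

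SEC11A, the other catalytic subunit, was at 98.4, 92.8 and 97.8 CPM in starved and 83.7, 80.8 and 88.6 CPM in fed OGDH-depleted cells. In control cells it was at 97.2, 95.3 and 89.5 CPM after starvation and 90.6, 91.8 and 83.4 CPM with glucose. The control groups overlap, and its log2 fold change there was 0.09 (95% interval -0.095 to 0.266). In OGDH-depleted cells the starved libraries all lay above the fed ones. The log2 fold change was 0.19 (95% interval 0.011 to 0.372) and did not pass (edgeR adjusted p = 0.188). SPCS3 rose by 0.65 in control cells (edgeR adjusted p = 0.0202), and this call too was lost on leaving out any 1 of the control libraries listed for SRP54. SPCS2 did not pass (0.47, edgeR adjusted p = 0.0511), and copies of it elsewhere in the genome hold 14148 counts beside its own 3228, so its level is uncertain. SPCS1, whose exons overlap GLT8D1 and NEK4 over 56.57% of their bases, had a log2 fold change of -0.23 (edgeR adjusted p = 0.141).

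Of the COPII GTPases and scaffolds, SEC16A changed and SAR1A, SAR1B and SEC23IP did not pass in any comparison. SEC16A marks and organises ER exit sites. It was at 137, 136 and 124 CPM in starved and 197, 215 and 192 CPM in fed OGDH-depleted cells, against 209, 216 and 221 CPM in starved and 172, 158 and 178 CPM in fed control cells. Starved OGDH-depleted libraries were below all others, and the starved control libraries were above the fed control ones, whereas fed OGDH-depleted libraries were above fed control ones. SEC16A fell by 0.60 on the log2 scale in OGDH-depleted cells (SE 0.0876, edgeR adjusted p = 0.00224) and rose by 0.35 in control cells (edgeR adjusted p = 0.00923). The interaction was -0.95 (edgeR adjusted p = 0.000341). It was the 1 member called in opposite directions in the 2 backgrounds. Without the 3 libraries that stand apart the log2 fold changes were -0.58 and 0.28, both past the threshold. The call in control cells was lost with no filter on low counts and in a fit of those 2 groups alone.

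SAR1A and SAR1B, the GTPases that start coat assembly, had log2 fold changes of 0.06 and 0.07 in OGDH-depleted cells and 0.17 and -0.02 in control cells, with 95% intervals in control cells of -0.094 to 0.426 and -0.294 to 0.262. SEC23IP, which binds SEC23 and SEC31, had 0.23 and 0.14. SAR1B and SEC24A are neighbours on chromosome 5 that start close together on opposite strands, and 3.6% of SAR1B's exon bases lie in SEC24A. SEC24A rose in control cells (below) while SAR1B did not pass.

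Within the inner coat, SEC24D moved most, and it was also the member with the largest log2 fold change of all 43 in control cells. SEC24 proteins select cargo, and SEC24D and SEC24C form one sequence pair of the family, SEC24A and SEC24B the other. SEC24D (chromosome 4, 118722823 to 118838683, minus strand) was at 54.4, 63.9 and 69.0 CPM in starved and 53.8, 53.2 and 47.0 CPM in fed OGDH-depleted cells. In control cells it was at 245, 230 and 178 CPM after starvation and 52.0, 69.6 and 56.9 CPM with glucose. The 3 starved control libraries were above the other 9. It rose 3.65-fold in control cells (log2 1.87, SE 0.153, edgeR adjusted p = 3.77e-06) and had a log2 fold change of 0.28 in OGDH-depleted cells (95% interval -0.045 to 0.609, edgeR adjusted p = 0.271). The interaction was -1.59 (SE 0.211, edgeR adjusted p = 0.000406), and it passed in all 21 alternatives, from -1.93 to -1.50.

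SEC23B, the inner coat subunit that activates the SAR1 GTPase, was at 139, 148 and 147 CPM in starved and 126, 127 and 121 CPM in fed OGDH-depleted cells, against 265, 279 and 242 CPM in starved and 121, 144 and 123 CPM in fed control cells. Again the starved control libraries stood alone. It rose 2.02-fold in control cells (edgeR adjusted p = 1.02e-05), and the interaction was -0.80 (edgeR adjusted p = 0.00165). SEC23A, its paralog, was at 63.3, 56.6 and 56.3 CPM in starved and 54.9, 60.6 and 54.5 CPM in fed control cells. Those groups overlap, with a log2 fold change of 0.05 (95% interval -0.146 to 0.25).

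SEC24A rose 2.2-fold in control cells (edgeR adjusted p = 0.0175) with widely spread libraries, at 236, 229 and 123 CPM after starvation and 63.8, 133 and 71.0 CPM with glucose. Fed replicate 2 was above starved replicate 3, the pair that stands apart, and the other libraries of the groups did not overlap. The call was lost on leaving out any 1 of the control libraries listed for SRP54, and in a fit of the control groups alone. SEC24B and SEC24C had log2 fold changes of 0.45 and -0.30 in OGDH-depleted cells and of 0.42 and 0.04 in control cells, and none passed. For SEC24C 42.84% of exon bases overlap an unnamed gene.

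In the outer coat, SEC31A and SEC31B moved in opposite directions in starved control cells. SEC31A rose by 0.96 (edgeR adjusted p = 0.0139), at 463, 448 and 274 CPM in starved and 150, 277 and 180 CPM in fed control cells, where fed replicate 2 was just above starved replicate 3. Its call was lost on leaving out control fed replicate 1 or 3 or control starved replicate 1. SEC31B was at 7.21, 6.83 and 6.43 CPM in starved and 9.41, 9.85 and 10.7 CPM in fed OGDH-depleted cells, against 4.10, 4.94 and 4.29 CPM in starved and 8.28, 7.44 and 8.75 CPM in fed control cells. Starved libraries were below fed ones in both backgrounds. SEC31B fell by 0.55 in OGDH-depleted cells (edgeR adjusted p = 0.0181) and by 0.88 in control cells (edgeR adjusted p = 0.000225), and the interaction of 0.33 did not pass (edgeR adjusted p = 0.224). Its call in OGDH-depleted cells was lost in 5 of 16 alternatives, 4 of which leave out 1 library (OGDH-depleted fed replicate 2 or 3, OGDH-depleted starved replicate 2 or 3). SEC13, the other outer coat subunit, which also serves in nuclear pores, did not pass (0.36 in control cells, edgeR adjusted p = 0.211).

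**Figure D3:**
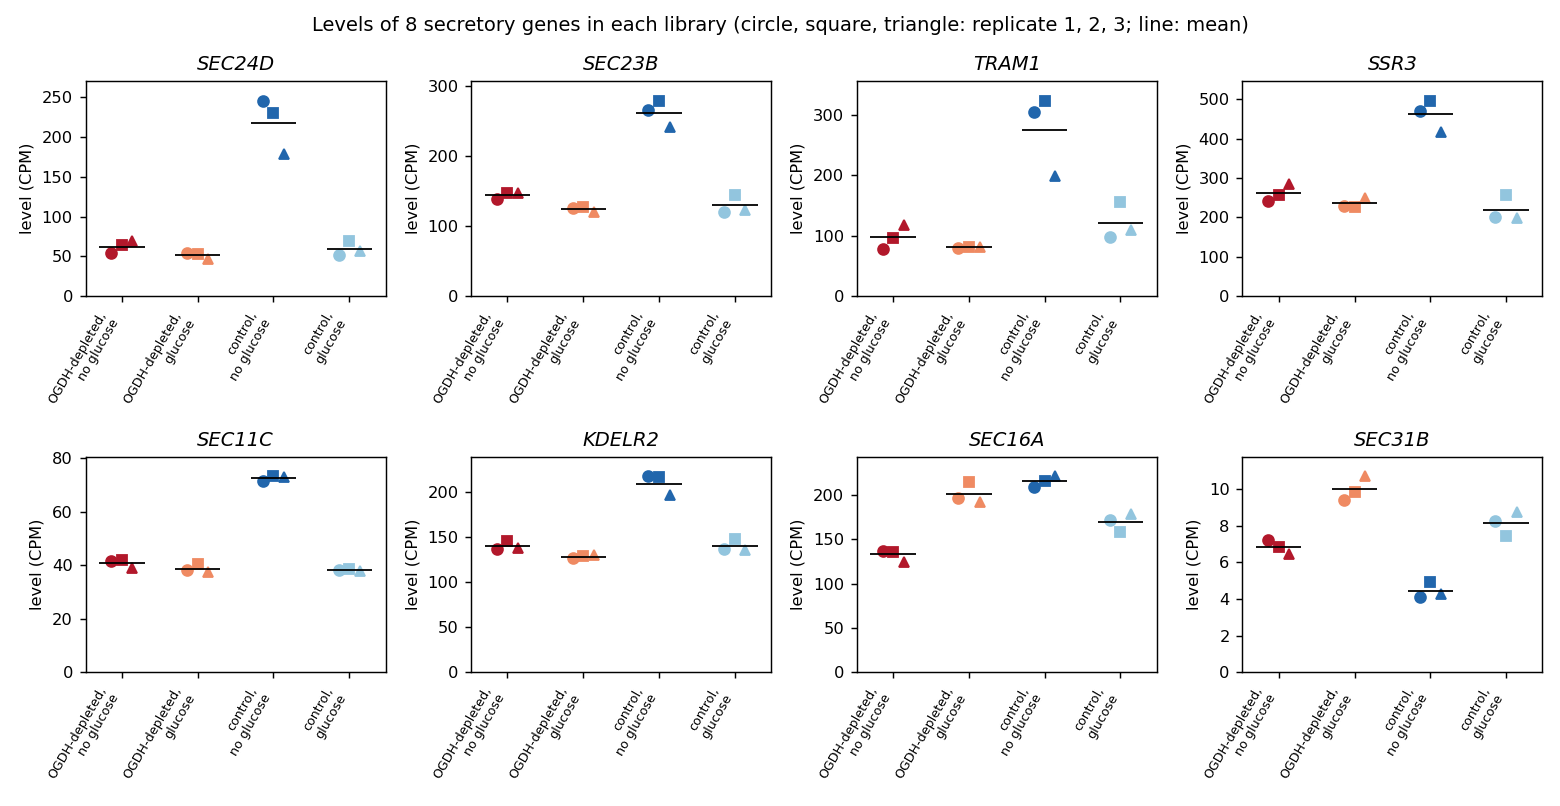
CPM (y axis) in each of the 12 libraries for SEC24D, SEC23B, TRAM1, SSR3, SEC11C, KDELR2, SEC16A and SEC31B, by group (x axis), with a line at each group mean. In the first 6 panels the starved control libraries lie above all others (245, 230 and 178 CPM for SEC24D), SEC16A is lowest in starved OGDH-depleted cells, and SEC31B is lower in starved than in fed cells of both backgrounds.

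At the vesicle's target, SEC22B, the SNARE of ER to Golgi traffic, rose by 0.45 in control cells (edgeR adjusted p = 0.0045) and its relative SEC22C fell by 0.59 (edgeR adjusted p = 0.00292). SEC22C was at 37.2, 34.3 and 31.5 CPM in starved and 41.5, 36.3 and 41.4 CPM in fed OGDH-depleted cells, against 23.3, 25.2 and 29.1 CPM in starved and 43.4, 35.2 and 38.3 CPM in fed control cells. The starved control libraries were the lowest 3. SEC22A did not pass (0.43, edgeR adjusted p = 0.0782).

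Of the KDEL receptors, KDELR2 rose in control cells. It was at 136, 145 and 138 CPM in starved and 126, 129 and 130 CPM in fed OGDH-depleted cells, against 217, 216 and 196 CPM in starved and 137, 147 and 135 CPM in fed control cells, with the starved control libraries above the rest. The rise was 1.5-fold (edgeR adjusted p = 0.000209), and the interaction was -0.45 (edgeR adjusted p = 0.018). KDELR1 and KDELR3 had log2 fold changes of 0.16 and 0.13 in OGDH-depleted cells and of 0.18 and 0.24 in control cells, none past the threshold.

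Set side by side per length, the shares of paralogs shifted within several families in starved control cells. These shares of a family's summed RPKM carry no test of their own. By group means the order changed in the SEC11 family there, and in the SEC24 family on starvation in both backgrounds. SEC24C had the largest SEC24 share in fed cells, at 38.2 ± 1.9% in OGDH-depleted and 32.4 ± 10.4% in control cells. After starvation it had 27.5 ± 7.89% and 19.1 ± 6.73%. Within fed control cells its share was 39.3%, 20.5% and 37.4%, lowest in replicate 2, which stands apart. Within starved OGDH-depleted cells it was 35.2%, 27.7% and 19.4%, lowest in replicate 3, which stands apart, and still the largest in replicate 1. Within starved control cells it was 14.6%, 15.9% and 26.8%, highest in replicate 3, which stands apart. What these libraries add to the change of order was not tested. SEC24D made up 11.7 ± 0.485% of SEC24 RPKM in starved and 11.2 ± 0.634% in fed OGDH-depleted cells, and 26.4 ± 1.54% in starved and 12.7 ± 0.571% in fed control cells. Its 3 starved control shares, 26.7%, 24.7% and 27.8%, are above the 9 others, which span 10.6% to 13%. SEC11C made up 36.1 ± 1.46% and 38.0 ± 1.96% of the catalytic subunits in starved and fed OGDH-depleted cells, and 50.8 ± 1.3% and 36.5 ± 1.08% in starved and fed control cells. SEC11A made up the other 49.2% in starved control cells.

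SEC23B was the main SEC23 in all groups, at 85.0 ± 0.243% in starved and 84.0 ± 0.277% in fed OGDH-depleted cells and 89.9 ± 0.781% in starved and 82.0 ± 0.528% in fed control cells. KDELR2's share was 32.8 ± 1.3% in starved and 33.3 ± 0.822% in fed OGDH-depleted cells, and 42.2 ± 0.731% in starved and 35.7 ± 1.31% in fed control cells. KDELR1 held the largest share of that family in all 4 groups. SEC22C's share was 27.5 ± 2.59% in starved and 31.3 ± 1.29% in fed OGDH-depleted cells, and 18.6 ± 3.04% in starved and 31.9 ± 4.13% in fed control cells. The SAR1 pair kept SAR1A between 76.3% and 78.4% of its RPKM in the 4 group means. The families changed in amount too: SEC24 RPKM summed to 53.8 ± 8.49 in starved and 46.3 ± 4.15 in fed OGDH-depleted cells, and to 83.5 ± 16.4 in starved and 47.6 ± 9.52 in fed control cells.

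**Figure D4:**
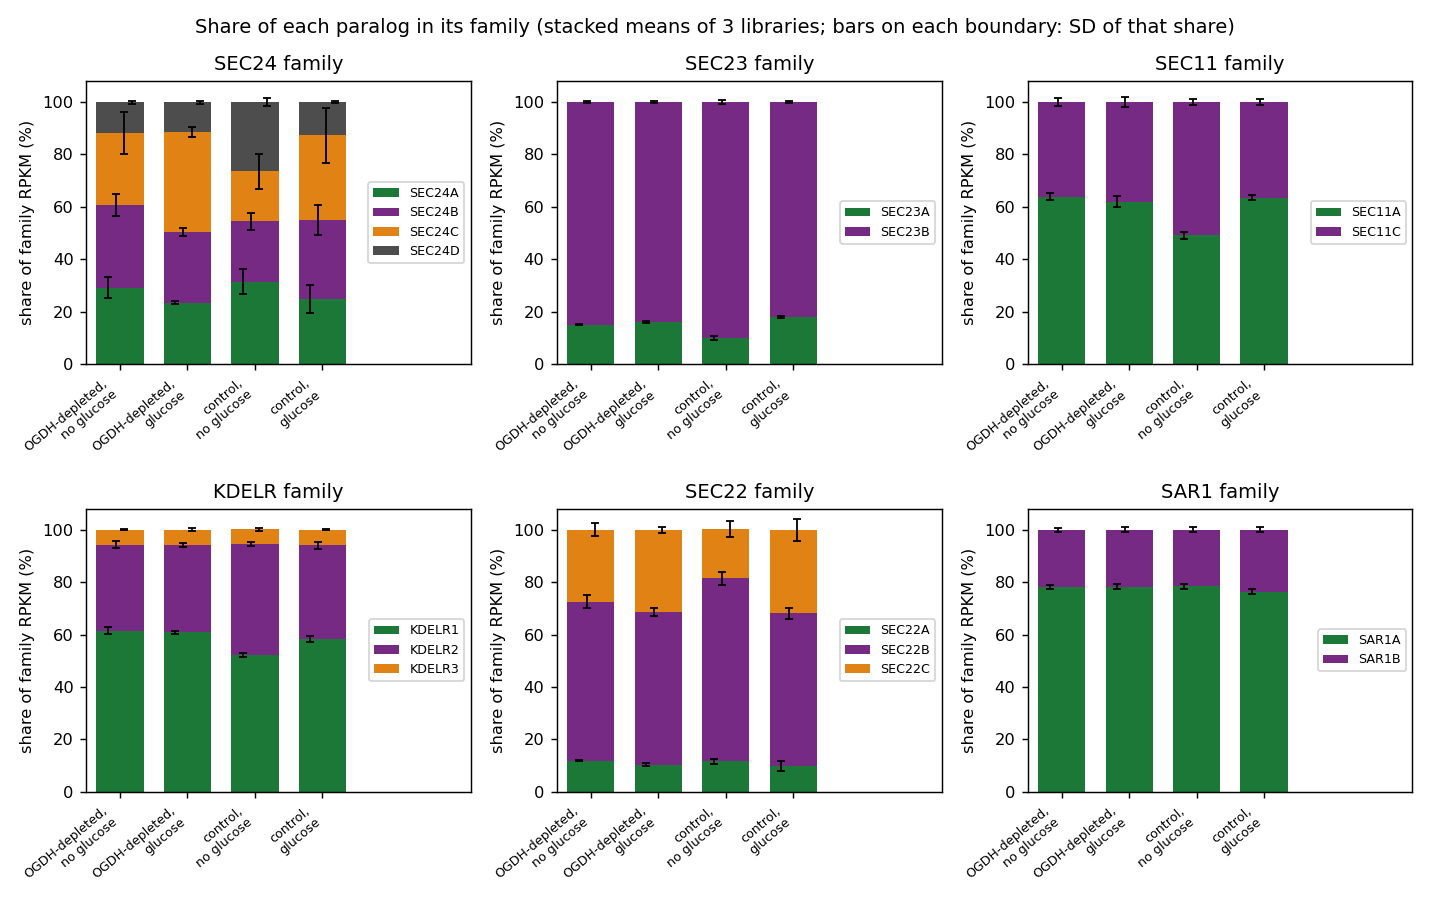
Share of each paralog in the summed RPKM of its family (%, y axis; stacked means of 3 libraries, error bars SD of the share ending at that boundary) in the 4 groups (x axis). SEC24D, SEC11C, SEC23B and KDELR2 take larger shares in starved control cells than in the other groups (26.4%, 50.8%, 89.9% and 42.2%), SEC22C takes a smaller one (18.6%), and the SAR1 family differs by little.

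OGDH loss was compared in each medium. With glucose, 0 of 43 members were called higher and 0 lower, beside 1.59% and 1.45% of all tested genes (edgeR's quasi-likelihood test). At an unadjusted p under 0.05, 2 were higher (SEC16A and SEC31B) and 2 lower (TRAM1 and SEC23A), beside 16% of all tested genes in both directions together. DESeq2 called 1, SEC16A, higher, beside 6.33% of all tested genes in both directions. SEC16A averaged 201 ± 12.3 CPM in fed OGDH-depleted cells and 169 ± 10.2 CPM in fed control cells (0.25, edgeR adjusted p = 0.173). TRAM1 averaged 80.9 ± 0.489 CPM in fed OGDH-depleted cells and 121 ± 29.9 CPM in fed control cells (-0.58, edgeR adjusted p = 0.203), and without the libraries that stand apart it was the 1 of 43 members called, beside 10.8% of all tested genes. With the GC slope covariate 10 members were called, 7 higher and 3 lower, beside 23.3% of all tested genes.

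Without glucose, 17 of 43 members were lower with OGDH loss and 2 higher, beside 15% and 13.7% of all tested genes. This comparison shares the starved control libraries with the starvation response of control cells, so their values are set side by side and not counted as separate evidence. The largest log2 fold changes were -1.80 for SEC24D (edgeR adjusted p = 7.8e-06) and -1.50 for TRAM1 (edgeR adjusted p = 0.000397), beside 1.87 and 1.19 for starvation in control cells. SEC61A1 followed at -1.09 and SRP19 at -1.01. SEC31B and SEC22C were higher, by 0.62 and 0.41 (edgeR adjusted p = 0.00299 and 0.0262). SPCS2 passed in this comparison and in none of the others (-0.68, edgeR adjusted p = 0.0117), a call lost without OGDH-depleted starved replicate 2, and its level is uncertain as given above. Leaving out that library also ended the calls of SSR4, SPCS3, SEC22B and SEC22C. In that fit 14 members were called, beside 21.2% of all tested genes. The other 12 called lower were SRP68, SRPRA, SRPRB, SSR1, SSR3, SSR4, SEC11C, SPCS3, SEC16A, SEC23B, SEC22B and KDELR2.

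**Figure D5:**
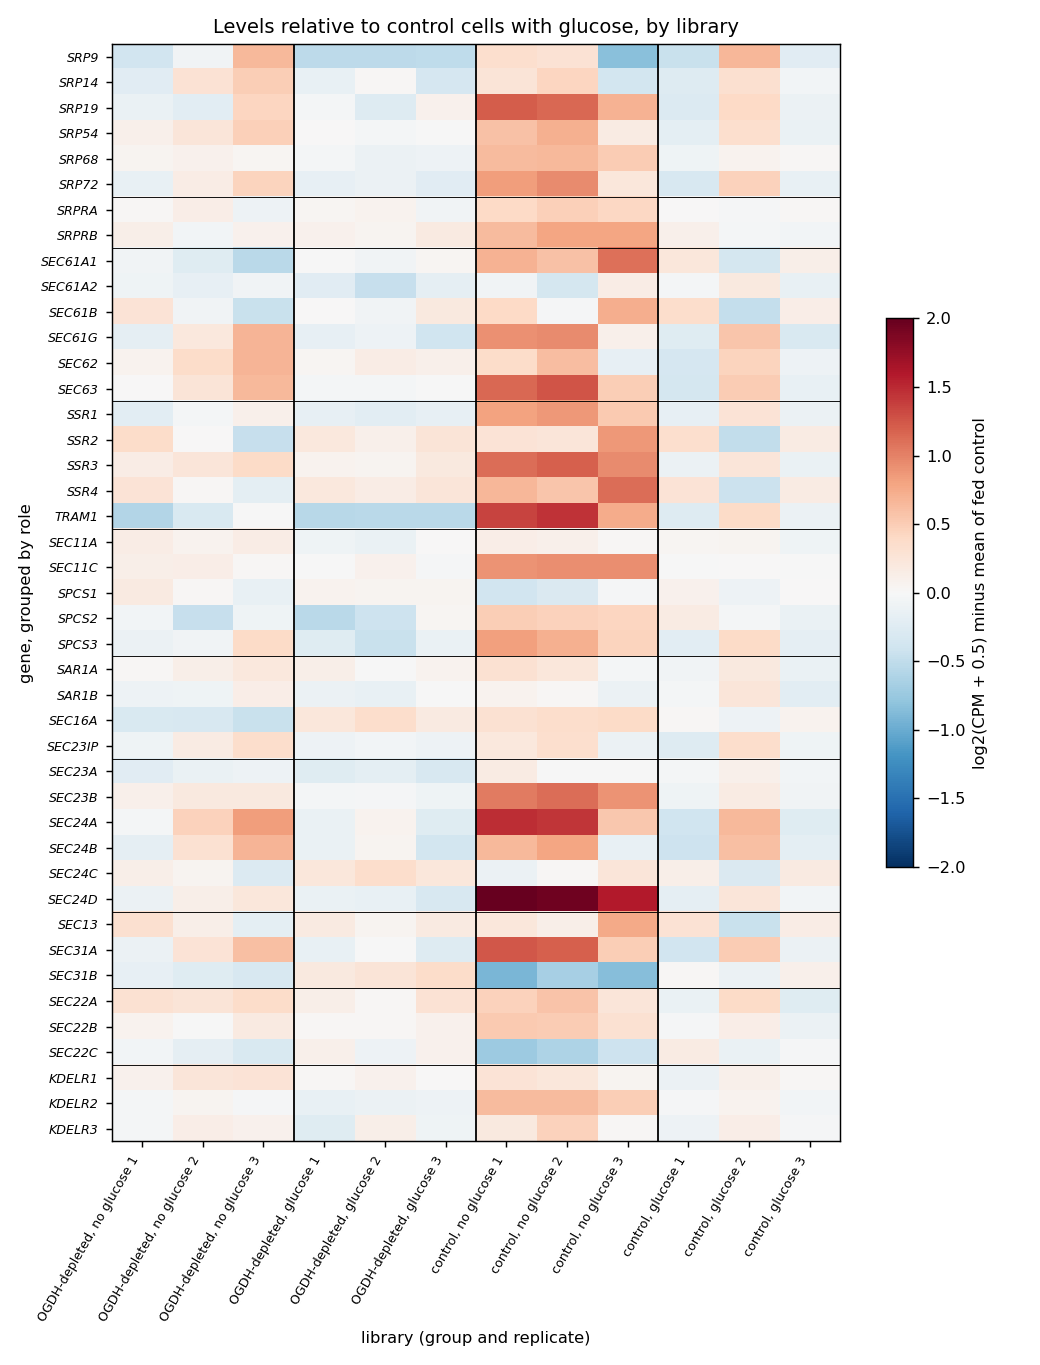
Log2(CPM + 0.5) of the 43 genes (rows, grouped by role) in the 12 libraries (columns), minus the gene's mean in fed control cells. The starved control columns are red for most genes and darkest for SEC24D, SEC31B and SEC22C are blue there, and the columns of OGDH-depleted starved replicate 3 and control fed replicate 2 are tinted red for genes such as SRP9 and SEC24B.

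Around these genes, a list of 79 further early secretory genes was tested in the same fit: translocon accessories, COPII regulators, cargo receptors, the COPI coat, and tethers and SNAREs. On starvation 1 rose and 0 fell in OGDH-depleted cells, beside 2.42% and 4.76% of all tested genes called higher and lower. At an unadjusted p under 0.05 there were 9, beside 23.7% of all tested genes. In control cells 29 rose and 3 fell, beside 17% and 17.5%. The median log2 fold changes of the list were 0.02 in OGDH-depleted and 0.19 in control cells. The tethers and SNAREs had the most calls for their number, 10 of 14 higher in control cells. In OGDH-depleted cells 0 of these 14 were called (edgeR; 2 at an unadjusted p under 0.05). Translocon accessories, most of them subunits of the EMC and GET insertion routes, had 3 of 22 higher and 1 lower in control cells, no larger a share than over all tested genes.

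SERP1, a small protein of the SEC61 channel also called RAMP4, averaged 159 ± 4.06 CPM in starved and 148 ± 5.66 CPM in fed OGDH-depleted cells, and 368 ± 24.7 CPM in starved and 135 ± 3.07 CPM in fed control cells (log2 1.44 in control cells, edgeR adjusted p = 2.47e-07). ARFGAP3, which acts on the COPI GTPase ARF1, averaged 27.5 ± 1.16 CPM in starved and 20.1 ± 0.708 CPM in fed OGDH-depleted cells, and 52.8 ± 4.89 CPM in starved and 16.2 ± 2.11 CPM in fed control cells. It rose in both, by 0.46 in OGDH-depleted cells (edgeR adjusted p = 0.0358), where it was the 1 gene of the list called, and by 1.71 in control cells (edgeR adjusted p = 9.43e-07). COPA, the alpha subunit of the COPI coat, rose by 0.82 in control cells (edgeR adjusted p = 1.3e-05). The interaction passed for these 3, at -1.34, -1.25 and -0.74 (edgeR adjusted p = 2.22e-05, 0.000339 and 0.00097).

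The next smallest p-values for starvation in OGDH-depleted cells belonged to MIA2, a cargo factor of ER exit sites, at 0.48 (edgeR adjusted p = 0.0599), and PDCD6, a calcium-binding partner of SEC31A, at -0.68 (edgeR adjusted p = 0.0849). For OGDH loss with glucose 0 of the 79 were called, beside 3.04% of all tested genes. At an unadjusted p under 0.05 there were 7, beside 16%. The smallest p-values were those of the SNARE GOSR2 (0.32, edgeR adjusted p = 0.0588), TRAM2 (0.29, edgeR adjusted p = 0.133) and the cargo receptor CNIH4 (-0.29, edgeR adjusted p = 0.15). For OGDH loss without glucose 5 were higher and 23 lower, beside 13.7% and 15% of all tested genes. The smallest p-values were those of SERP1 at -1.21, ARFGAP3 at -0.94 and MIA2 at -1.03 (edgeR adjusted p = 1.7e-06, 0.000114 and 0.000219), and the largest change by size was that of the cargo receptor TMED7, at -1.85 (edgeR adjusted p = 0.000295). TMED7 averaged 126 ± 28.1 CPM in starved OGDH-depleted cells and 456 ± 117 CPM in starved control cells. The interaction was below 0 for 14 of the list and above 0 for 1, beside 8.95% and 8.3% of all tested genes.

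Base composition lined up with part of the members' behaviour. Across the 43 members, the log2 fold change on starvation correlated with GC content at r = -0.648 (rho = -0.541) in OGDH-depleted cells and at r = -0.139 (rho = -0.119) in control cells. These are correlations across genes of the same libraries, given as a description. The members' GC content runs from 35.8% to 60.8% with a median of 43.2%, against a median of 47.9% over the tested genes that have a value. The members whose starved control libraries all lay above the fed ones and whose interaction passed include both AT-rich genes (SEC11C at 40.26%, SSR3 at 40.02%) and GC-rich genes (SEC61A1 at 53.84%, SSR4 at 60.76%, SEC16A at 56.51%). These genes were picked by those calls, and what base composition adds to their differences was not tested.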

How the data were processed

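The authors counted sequenced fragments per gene name with featureCounts 2.0.1, per the file headers, as pairs over exons and without strand, leaving out fragments that map to several places or overlap several genes. The deposited table holds these raw counts for 61209 names in 12 libraries, and every per-sample column was used. The submitters' processing notes name Subread and hg38, with aligner and library type not given in the sources used here. Near-identical copies and overlapping exons lose counts. Copy names and overlaps are given beside some of the genes they touch, by the names and exon coordinates deposited with the counts. Overlaps also touch SRPRB (21.26% of exon bases), SEC31B (18.45%), SEC22A (10.42%), SEC61A2 (9.75%) and KDELR2 (9.57%), and smaller ones touch further members. Copies not mentioned above hold at most 688 counts a gene (SRP72, beside its own 92980). Counting error is small at 21556273 to 25546615 counts a library, and the spread between libraries sets the precision.

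Names were kept by filterByExpr (minimum count 10, minimum total 15), which left 18526, and scaled by TMM. Group differences went through the quasi-likelihood test of edgeR (version 4.0.16, with limma 3.58.1 in R 4.3.3) with 1 mean for each of 4 groups, 8 residual degrees of freedom, and Benjamini-Hochberg adjustment over all 18526 names at 0.05. Levels are CPM, or RPKM (CPM per kilobase of merged exons) between genes. The 44 members, the 79 further genes and the roles were chosen with earlier results of these data known. Of the 79, the 3 with the smallest p in each comparison were named. Alternatives were DESeq2 1.42.0, other scalings and filters, fewer groups or libraries, a replicate block and, added after seeing the data, a GC slope covariate. GC content came from the longest GENCODE v29 transcript, found for 15166 (81.9%) of the tested names and for all 43 members tested. Scripts were tested on simulated counts. Same-numbered libraries of different groups correlated at -0.791 to 0.753, with no common direction, and the numbers were not taken as pairs. The libraries that stand apart enter these correlations, which cannot settle whether libraries were paired. Replicates were compared and no library repeated another.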

Additional observations from a re-analysis of the deposited data

Results flagged for a closer look

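For 11 genes the starvation response differed between OGDH-depleted and control cells by the interaction test itself (edgeR's quasi-likelihood test), all in the same direction. On the log2 scale the difference was -1.59 for SEC24D (a response of 0.28 in OGDH-depleted cells and 1.87 in control cells), -1.05 for SEC61A1 (-0.26 and 0.79), -0.95 for SEC16A (-0.60 and 0.35) and -0.93 for both SSR4 (-0.15 and 0.78) and SSR3 (0.15 and 1.07). It was -0.85 for SEC11C (0.08 and 0.93), -0.80 for SEC23B (0.21 and 1.02) and -0.80 for SRPRB (-0.06 and 0.74). It was -0.45 for SRP68 (0.14 and 0.60), -0.45 for KDELR2 (0.13 and 0.58) and -0.42 for SRPRA (0.01 and 0.43). HSPA5 gave -3.58 in the same test (0.26 and 3.84), and the part of the wider ER response in these differences was not tested.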

How the results depend on the processing

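All 23 calls for starvation in control cells and all 11 of the interaction remained without the 3 libraries that stand apart and with the GC slope covariate, while counts over all genes also grew. Leaving out the 3 libraries does not separate starvation from the slope, as given above. The slope itself was estimated from the levels in these same libraries. Without the 3 libraries, the calls numbered 35 for starvation of control cells, 29 for the interaction, 1 for the fed and 32 for the starved comparison of OGDH loss, beside 60.5%, 43%, 10.8% and 52.6% of all tested genes. Of the members called there, the sign changed for SRP9 (0.63) and SEC24C (-0.20) on starvation in control cells, for SRP9 (-0.56) and SEC62 (-0.30) for OGDH loss without glucose, and for SEC62 (-0.60), SEC23IP (-0.33) and SEC24B (-0.82) in the interaction. Further members changed sign without passing the threshold in either fit: 4 (SEC61B, SSR2, SAR1B and SEC13) for starvation in control cells, 7 in OGDH-depleted cells, 17 for OGDH loss with glucose, 6 without it, and 6 in the interaction. With the GC slope covariate, the calls numbered 6 for starvation of OGDH-depleted cells, 32 for the interaction, 10 for the fed and 30 for the starved comparison of OGDH loss, beside 26.2%, 47.1%, 23.3% and 57.6% of all tested genes. Of the members called there, signs changed for SEC61B (0.31), SSR2 (0.25), SSR4 (0.19) and SEC13 (0.33) on starvation in OGDH-depleted cells, for SRP54 (0.15), SEC63 (0.23) and SEC24A (0.23) for OGDH loss with glucose, and for SEC62 (-0.24) and SEC24B (-0.34) in the interaction. Another 22, 15 and 2 members changed sign there without passing, and SRP14 did for starvation in control cells. The median over the 43 members for starvation in OGDH-depleted cells was then -0.038, against 0.132 without the covariate. The cause of these changes was not tested. DESeq2 called 1 member for OGDH loss with glucose, beside 6.33% of all tested genes. With no filter on low counts 1 was called for starvation in OGDH-depleted cells, beside 3.14%. Leaving out 1 library at a time gave 18 to 26 calls for starvation in control cells, beside 26.6% to 39.6% of all tested genes. In OGDH-depleted cells it gave 1 to 2, beside 3.06% to 6.05%. For OGDH loss it gave 0 with glucose, beside 0.904% to 2.09%, and 14 to 24 without glucose, beside 21.2% to 28.4%. The interaction had 8 to 13 calls, beside 12.1% to 17.5%. With the replicate block, 22, 2, 0, 18 and 10 members were called in that order, without SRP54, SPCS3 and SRPRA. Over all tested genes that fit called 32.6%, 5.46%, 1.85%, 26.6% and 14.9%. Depth limits little here except for SEC16B, at 4 counts in all.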
